A study of Mus musculus with 12 samples.

Results

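The genes described here encode WNT ligands of the mouse streak and epiblast, namely Wnt3, Wnt3a, Wnt8a, Wnt6, Wnt10a, Wnt5a, Wnt5b, Wnt11, Wnt2b and Wnt7b. They were chosen by name, with earlier results of these data known. These 10 were followed among the 19 WNT ligand genes and the 24736 genes of the table. RNA was sequenced from mouse embryonic stem cells after 72 h of differentiation, in 4 groups of 3 cultures that the labels call independent biological replicates. FGF at 10 ng/ml and LGK974 at 5 µM were present in all 12 cultures. LGK974 inhibits PORCN, the enzyme that lipidates WNT proteins for release, so the ligands read here as RNA were made where their secretion was blocked in every group.

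EpiLC (epiblast-like cells) were wild type and received nothing further. CEpiLC (caudal epiblast-like cells) were wild type and were exposed between day 2 and day 3 to the GSK3 inhibitor CHIR99021, which stabilises β-catenin (concentration 5, in µM by the study's methods and in mM by the labels). SOX2-OFF and SOX2-ON received CHIR99021 in the same window and carried the genotype Sox2-/- with a doxycycline-inducible SOX2 transgene at Hprt, driven by rtTA expressed from Rosa26. Doxycycline was taken away for differentiation in SOX2-OFF and stayed at 1 µg/ml in SOX2-ON. Stem cells had been kept on fibroblast feeders before differentiation. The edited line was selected from clones, so SOX2-OFF and SOX2-ON share a clonal history that EpiLC and CEpiLC do not have, and a culture of this line without CHIR99021 was not analysed here. SOX2-ON against SOX2-OFF was the comparison within that line, with doxycycline differing as well as SOX2, whereas setting these groups beside EpiLC or CEpiLC also compares lines.

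WNT ligands are secreted, lipid-modified glycoproteins that bind Frizzled receptors. With LRP5 or LRP6 as co-receptor they stabilise β-catenin, which acts on genes through TCF/LEF factors; with ROR or RYK receptors they act on cell polarity and movement without β-catenin. In the mouse embryo Wnt3 is needed to form the primitive streak, Wnt3a maintains caudal progenitors and somite formation, Wnt8a is transcribed in the posterior epiblast, and Wnt5a drives extension of the caudal axis.

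The libraries held 10408252 to 27337740 expected counts, and 14196 genes could be tested. Sox2 read 171, 119 and 121 TPM (a level scaled for transcript length and library size) for EpiLC, and 215, 173 and 174 for SOX2-ON. It read 7.78 to 13.7 TPM for CEpiLC and 12.3 to 21.2 for SOX2-OFF, below every EpiLC and SOX2-ON library. In the edited line these values do not separate transcripts of the edited gene from those of the transgene, and they do not measure protein. The 6 epiblast markers summed to 2590 to 3065 TPM in EpiLC and to 841 to 1550 in the other groups. Pou5f1, which is among them, was not lower in SOX2-ON, with 985 to 1160 TPM beside 813 to 942 in EpiLC. The 6 primitive streak markers summed to 3.6 to 3.92 TPM in EpiLC, 545 to 1095 in CEpiLC, 1068 to 1181 in SOX2-OFF and 163 to 195 in SOX2-ON. Outside EpiLC most of the sum was T, with 474 to 892 TPM in CEpiLC, 792 to 830 in SOX2-OFF and 138 to 172 in SOX2-ON. In SOX2-OFF against CEpiLC 4 of the 6 were called higher and 1 lower, beside 23.6 and 24.9% of all genes. CEpiLC replicate 3, the shallowest library, stood apart from replicates 1 and 2 for Wnt8a, Wnt5b and Wnt2b, whose differences from CEpiLC are given with and without it. Reads had no molecular identifiers. Counting intervals pool the 3 libraries of a group, so they cover counting error only and not variation between libraries. In bulk RNA a smaller share of cells that transcribe a gene and less RNA per cell cannot be told apart.

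The summed level of the 10 genes differed between all groups with no overlap. It was 12.1, 8.1 and 11.5 TPM for EpiLC, 469, 432 and 384 for CEpiLC, 217, 213 and 211 for SOX2-OFF and 78.3, 74.5 and 75.1 for SOX2-ON. CEpiLC was highest and EpiLC lowest. The 10 genes held 50.3 to 66.2% of the summed TPM of all 19 WNT genes in EpiLC and 89.3 to 98.1% in the other groups.

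Which of the 19 ligand genes led differed between the groups. In EpiLC the mean was highest for Wnt8a (4.21 ± 1.39 TPM, SD, n = 3). Wnt9a, which is not among the 10, came next at 2.7 to 4.03 TPM and overlapped it, and Wnt5b (2.34 ± 0.25) lay below both without overlap. In CEpiLC it was again highest for Wnt8a (221 ± 80.5), and the next genes, Wnt5b (62 ± 29.8), Wnt3a (58.6 ± 15.1) and Wnt6 (41.2 ± 10.2), each overlapped the next in this order. In SOX2-OFF the order was Wnt5b (76 ± 3.19), Wnt6 (58 ± 3.13), Wnt3 (25.8 ± 1.33) and Wnt8a (21.4 ± 3.71), of which only Wnt3 and Wnt8a overlapped. In SOX2-ON Wnt5b led (31.3 ± 3.03), and Wnt5a (15 ± 2.11) and Wnt8a (13.2 ± 4.55) overlapped behind it.

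As a share of the 19 genes, Wnt8a held 56.6, 59.9 and 32.2% in CEpiLC, and replicate 3 was the low value. It held 7.73 to 11% in SOX2-OFF and 9.49 to 20.3% in SOX2-ON. Wnt5b held 9.49, 10 and 24.3% in CEpiLC, 32 to 34.7% in SOX2-OFF and 34.9 to 39.5% in SOX2-ON. Chromosome-wide differences between the lines, given below for the chromosome of Wnt5b, are not removed from these shares. Wnt6 held 7.96 to 11.1% in CEpiLC, 24.9 to 26.8% in SOX2-OFF and 6.85 to 8.16% in SOX2-ON, so that SOX2-OFF lay above both other groups treated with CHIR99021.

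**Figure D1:**
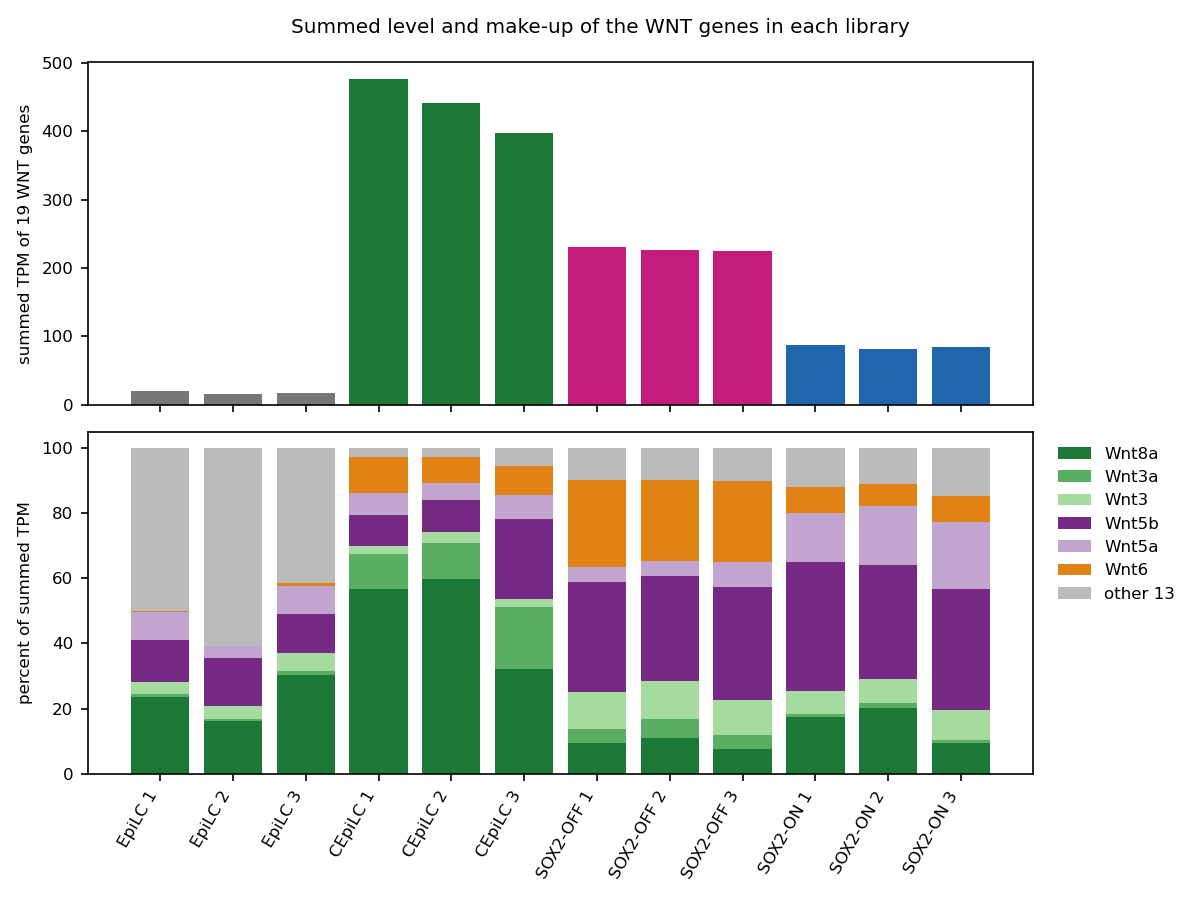
The upper bars give the summed TPM of the 19 WNT genes in each library, and the lower bars the percent of that sum taken by each of 6 ligands and by the other 13 genes. Wnt8a takes 56.6 and 59.9% in CEpiLC replicates 1 and 2, and Wnt5b takes 32 to 34.7% in SOX2-OFF.

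Exposure of wild-type cells to CHIR99021 was read from CEpiLC against EpiLC. Of the 10 ligand genes, 9 rose and 1, Wnt7b, fell by edgeR's quasi-likelihood test (Benjamini-Hochberg adjusted p of at most 0.05 over all genes tested). Of all genes tested, 22.1% were called higher and 20.1% lower. Of the other 9 WNT ligand genes 6 could be tested, with 2 called higher and 1 lower. The median log2 fold change of the 10 genes was 4.57, beside 0.012 for all genes. In SOX2-OFF against CEpiLC, 4 ligand genes were called higher and 3 lower, where 23.6% of all genes were higher and 24.9% lower. The median was 0.17, beside -0.013 for all genes.

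In SOX2-ON against CEpiLC, 1 ligand gene was called higher and 8 lower, where 27.9% of all genes were higher and 28.6% lower. The median was -1.83, beside -0.012. In SOX2-ON against SOX2-OFF, 0 were called higher and 7 lower, where 14.8% of all genes were higher and 14.1% lower. The median was -1.67, beside -0.0075, and the other 3 genes (Wnt5a, Wnt8a and Wnt2b) did not pass the test. Against EpiLC, all 10 were called higher in SOX2-OFF, where 31.5% of all genes were higher and 30.6% lower, and 8 without EpiLC replicate 3, when Wnt2b and Wnt7b missed the threshold. In SOX2-ON against EpiLC, 7 were called higher and 0 lower, where 30.7% of all genes were higher and 29.1% lower. These 6 comparisons share groups, so their counts are not independent of each other.

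**Figure D2:**
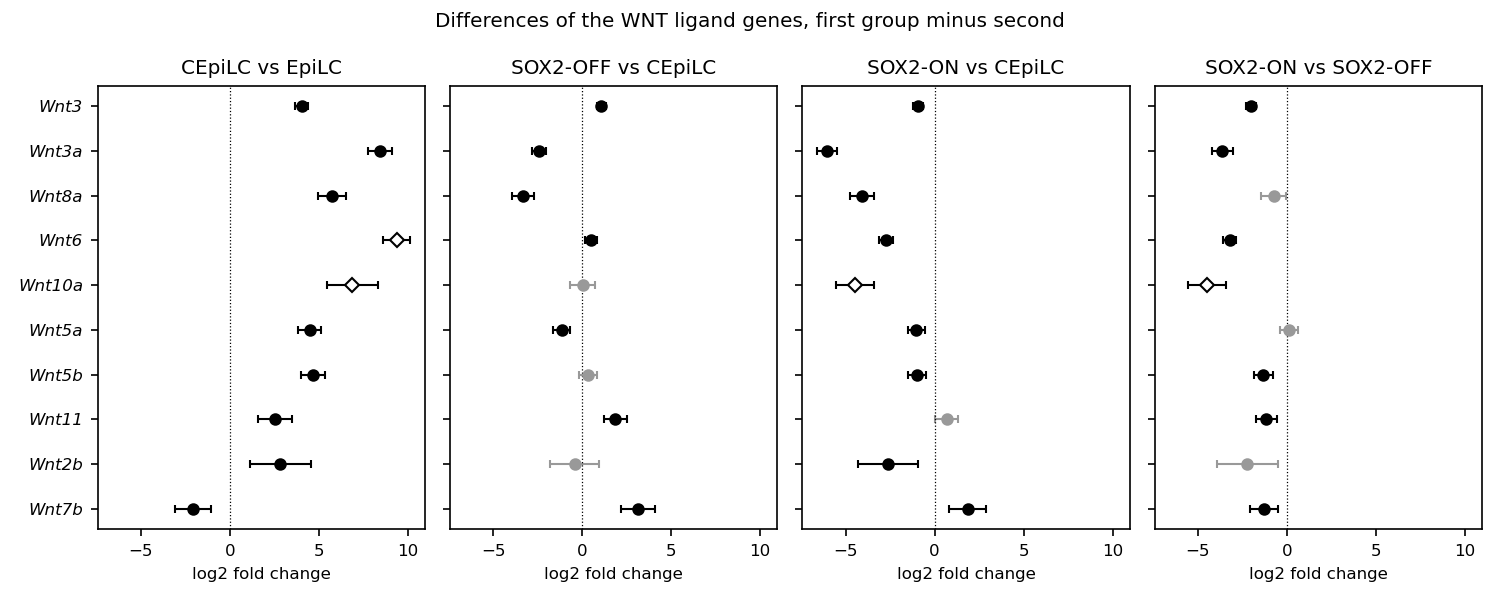
Points give the log2 fold change of each ligand gene, first group minus second, with its 95% confidence interval from edgeR, in 4 comparisons of 3 libraries each. Black marks an adjusted p of at most 0.05, and open diamonds a comparison with a group of at most 3 counts in every library. In SOX2-ON against SOX2-OFF, 9 of the 10 points lie below 0 and 7 pass the test.

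Wnt3, Wnt3a and Wnt8a are ligands that act mainly through β-catenin. Wnt3 lies on chromosome 11 (103774175 to 103818021, GRCm38). It read 0.7, 0.66 and 0.95 TPM for EpiLC, 12.1, 14.6 and 10.1 for CEpiLC, 26.5, 26.7 and 24.3 for SOX2-OFF, and 6.26, 6.05 and 7.55 for SOX2-ON. The 4 groups did not overlap, and SOX2-OFF was highest. Wnt3 rose in CEpiLC over EpiLC by 4.03 on the log2 scale (SE 0.17, adjusted p 2.57e-09 by edgeR). SOX2-OFF exceeded CEpiLC by 1.08 (SE 0.12, adjusted p 1.22e-05 by edgeR), and SOX2-ON lay below CEpiLC with -0.93 (SE 0.13, adjusted p 4.65e-05 by edgeR). Within the edited line, the log2 difference of SOX2-ON from SOX2-OFF was -2.02 (SE 0.13, adjusted p 3.11e-07 by edgeR).

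Genes of chromosome 11, which holds Wnt3 and Wnt3a, were lower as a body in the edited line, with a median log2 difference from CEpiLC of -0.51 in SOX2-OFF and -0.55 in SOX2-ON over 704 genes. On chromosome 6, which holds Wnt5b, the median was 0.57 in both groups. Between SOX2-ON and SOX2-OFF these medians were -0.03 and -0.02. With the median of its chromosome removed, the Wnt3 difference from CEpiLC was 1.59 for SOX2-OFF and -0.39 for SOX2-ON (adjusted p 1.63e-06 and 0.0246 by edgeR). The part of these chromosome-wide differences in the ligand results across lines was not tested otherwise.

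Wnt3a (chromosome 11, 59248036 to 59290751) read 0.21, 0.08 and 0.22 TPM for EpiLC, 51.8, 48.1 and 75.9 for CEpiLC, 9.52, 12.9 and 9.68 for SOX2-OFF, and 0.71, 1.14 and 0.86 for SOX2-ON. The groups did not overlap, and CEpiLC lay far above the others. Wnt3a rose in CEpiLC over EpiLC by 8.45 on the log2 scale (SE 0.32, adjusted p 1.03e-09 by edgeR). It was lower than in CEpiLC in both groups of the edited line, with log2 fold changes of -2.43 in SOX2-OFF (SE 0.19, adjusted p 5.88e-07 by edgeR) and -6.05 in SOX2-ON (SE 0.25, adjusted p 4.09e-09 by edgeR). SOX2-ON lay below SOX2-OFF with -3.63 (SE 0.26, adjusted p 8.09e-07 by edgeR) and above EpiLC by 2.39 (SE 0.52, adjusted p 0.00145 by edgeR). Wnt3 and Wnt3a therefore went in opposite directions from CEpiLC to SOX2-OFF and in the same direction from SOX2-OFF to SOX2-ON. With the chromosome median removed, the Wnt3a difference of SOX2-OFF from CEpiLC was -1.91.

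Wnt8a (chromosome 18) read 4.75, 2.63 and 5.26 TPM for EpiLC, 270, 264 and 128 for CEpiLC, 22.1, 24.8 and 17.4 for SOX2-OFF, and 15.1, 16.4 and 7.99 for SOX2-ON. All CEpiLC libraries lay above all others, and the lowest SOX2-OFF value stood just above the highest SOX2-ON value. Wnt8a rose in CEpiLC over EpiLC by 5.74 (SE 0.35, adjusted p 7.4e-08 by edgeR), or by 6.01 without CEpiLC replicate 3. SOX2-OFF lay below CEpiLC with -3.34 (SE 0.29, adjusted p 1.6e-06 by edgeR), and SOX2-ON with -4.10 (SE 0.31, adjusted p 2.72e-07 by edgeR). Without that library these were -3.60 and -4.36. Between SOX2-ON and SOX2-OFF the log2 fold change was -0.76 with a 95% interval of -1.45 to -0.076, and it did not pass the test (adjusted p 0.0898 by edgeR). It passed when only the 6 libraries compared were fitted (adjusted p 0.0452 by edgeR) and with a block for replicate number. In 13 of 15 alternatives it did not pass.

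Wnt6 and Wnt10a are neighbours on the forward strand of chromosome 1, at 74754342 to 74785322 and 74792019 to 74804176, with 6696 bases between them. Both encode ligands known mainly from epithelia. Wnt6 read 0.05, 0 and 0.15 TPM for EpiLC, 52.9, 35.1 and 35.4 for CEpiLC, 61.7, 56.1 and 56.4 for SOX2-OFF, and 6.76, 5.54 and 6.87 for SOX2-ON. The groups did not overlap. In EpiLC the gene had 3 counts in all, against 2527 in CEpiLC, a ratio after scaling of 788 with a 95% counting interval of 269 to 3.82e+03 (adjusted p 1.03e-09 by edgeR). SOX2-OFF exceeded CEpiLC by 0.50 on the log2 scale (SE 0.15, adjusted p 0.0152 by edgeR), a call that was lost without CEpiLC replicate 2 (0.39, adjusted p 0.0665 by edgeR) and without SOX2-OFF replicate 1 (0.47, adjusted p 0.0526 by edgeR). SOX2-ON lay below CEpiLC with -2.73 (SE 0.18, adjusted p 7.81e-08 by edgeR) and below SOX2-OFF with -3.23 (SE 0.18, adjusted p 1.18e-07 by edgeR).

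Wnt10a was lower in TPM than Wnt6 in every CEpiLC, SOX2-OFF and SOX2-ON library, and in EpiLC their values overlapped near 0. It read 0, 0.05 and 0 TPM for EpiLC, 3.71, 1.58 and 4.32 for CEpiLC, 3.47, 2.97 and 3.08 for SOX2-OFF, and 0.11, 0.18 and 0.12 for SOX2-ON. CEpiLC and SOX2-OFF overlapped and lay above both other groups. EpiLC had 1 count in all, against 170 in CEpiLC, a ratio of CEpiLC over EpiLC of 159 with a counting interval of 28.2 to 6.32e+03 (adjusted p 3.99e-06 by edgeR). SOX2-ON had 7 counts in its 3 libraries together, against 140 in SOX2-OFF, a ratio of SOX2-OFF over SOX2-ON of 23.5 with a counting interval of 11.1 to 59.5 (adjusted p 2.35e-05 by edgeR). The ratio of CEpiLC over SOX2-ON was 22.8 (10.9 to 57.7, adjusted p 6.57e-06 by edgeR). SOX2-OFF and CEpiLC differed by 0.021 on the log2 scale with a 95% interval of -0.68 to 0.72 (adjusted p 0.963 by edgeR). EpiLC and SOX2-ON were both too low for a ratio between them.

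**Figure D3:**
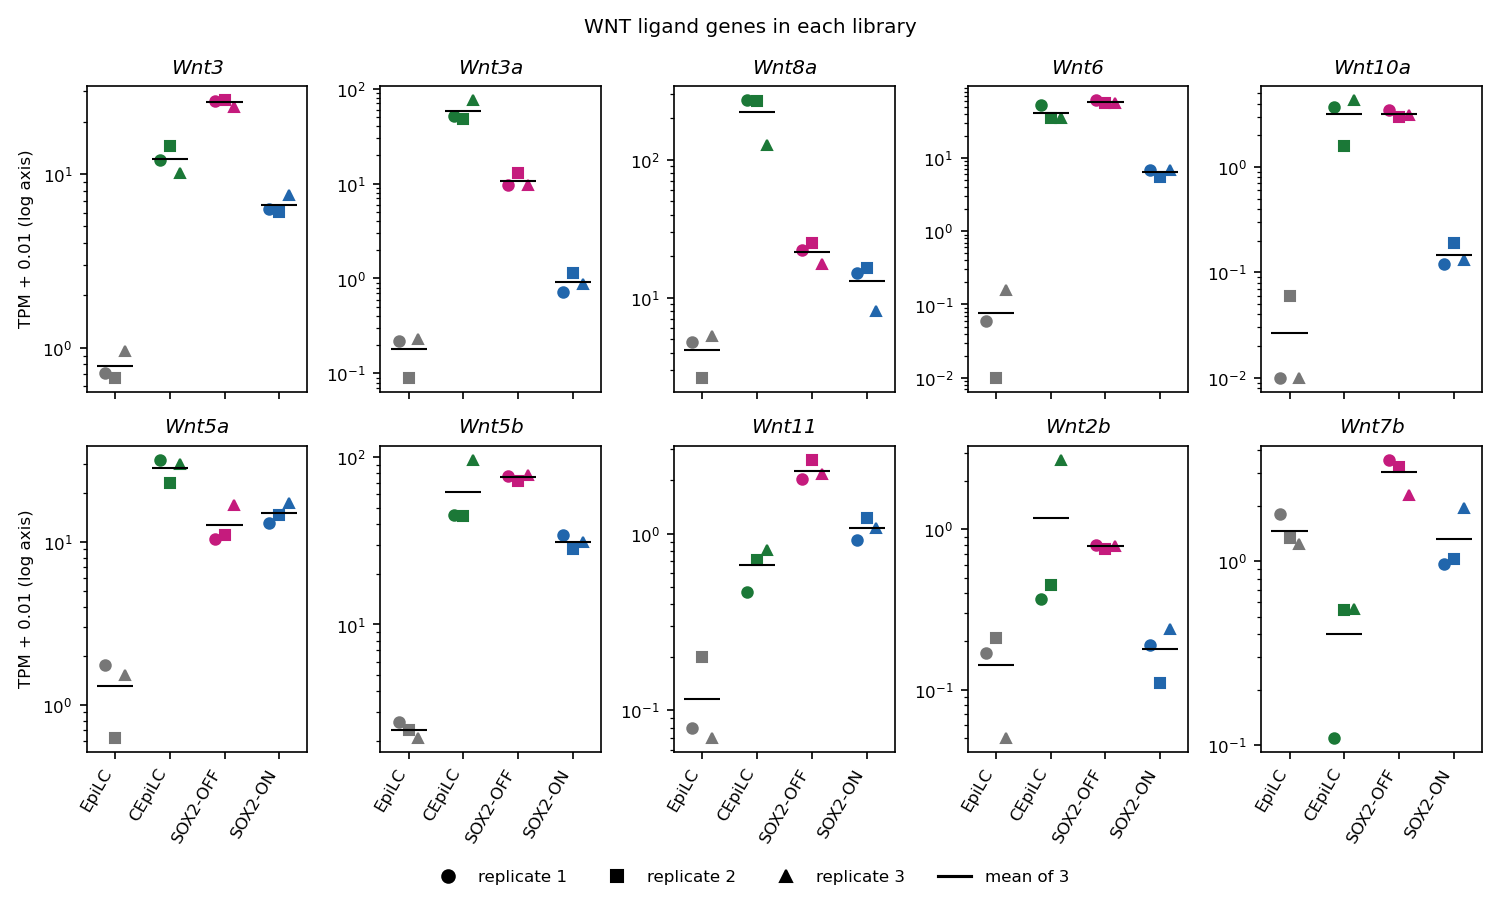
Each panel gives a ligand gene in TPM + 0.01 on a log axis, with its own range, for the 3 libraries of EpiLC, CEpiLC, SOX2-OFF and SOX2-ON, and a bar at their mean. Wnt3, Wnt6, Wnt5b, Wnt11 and Wnt7b have their highest means in SOX2-OFF, and Wnt3a, Wnt8a, Wnt5a, Wnt10a and Wnt2b in CEpiLC. The SOX2-OFF and CEpiLC values overlap for Wnt5b, Wnt10a and Wnt2b. In CEpiLC replicate 3 of Wnt8a lies at 128 against 270 and 264.

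Wnt5a, Wnt5b and Wnt11 are the ligands best known for signalling without β-catenin. Wnt5a (chromosome 14, 28504543 to 28527448) read 1.76, 0.62 and 1.52 TPM for EpiLC, 31.7, 22.8 and 30 for CEpiLC, 10.4, 11 and 16.7 for SOX2-OFF, and 13.1, 14.6 and 17.2 for SOX2-ON. CEpiLC lay above both groups of the edited line, and these overlapped. Wnt5a rose in CEpiLC over EpiLC by 4.48 (SE 0.29, adjusted p 1.2e-07 by edgeR). It was lower than in CEpiLC in SOX2-OFF with -1.16 (SE 0.23, adjusted p 0.00103 by edgeR) and in SOX2-ON with -1.03 (SE 0.23, adjusted p 0.00179 by edgeR). Between SOX2-ON and SOX2-OFF the difference was 0.13 with a 95% interval of -0.37 to 0.63 (adjusted p 0.717 by edgeR).

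Wnt5b (chromosome 6, 119432531 to 119544824) read 2.59, 2.34 and 2.09 TPM for EpiLC, 45.3, 44.3 and 96.5 for CEpiLC, 77.4, 72.3 and 78.2 for SOX2-OFF, and 34.3, 28.2 and 31.3 for SOX2-ON. CEpiLC replicates 1 and 2 lay below the SOX2-OFF range and replicate 3 above it. Wnt5b rose in CEpiLC over EpiLC by 4.66 (SE 0.31, adjusted p 1.84e-07 by edgeR), or by 4.20 without CEpiLC replicate 3, and was lower in SOX2-ON than in SOX2-OFF with -1.33 (SE 0.24, adjusted p 0.00107 by edgeR). The difference of SOX2-OFF from CEpiLC was 0.32 with a 95% interval of -0.18 to 0.83 (adjusted p 0.273 by edgeR). Without CEpiLC replicate 3 it was 0.79 (adjusted p 3.35e-05 by edgeR), and with the chromosome 6 median removed it was -0.25 (adjusted p 0.423 by edgeR). SOX2-ON was 2.01-fold lower than CEpiLC (log2 SE 0.24, adjusted p 0.00298 by edgeR), and the log2 difference was -0.54 without replicate 3 or -1.57 with the chromosome median removed.

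Wnt11 (chromosome 7, 98835084 to 98854747) was low throughout. It read 0.07, 0.19 and 0.06 TPM for EpiLC, 0.46, 0.7 and 0.8 for CEpiLC, 2.02, 2.6 and 2.16 for SOX2-OFF, and 0.91, 1.22 and 1.06 for SOX2-ON. The groups did not overlap, and SOX2-OFF was highest. Wnt11 rose in CEpiLC over EpiLC by 2.52 (SE 0.44, adjusted p 0.000501 by edgeR), or 3.24 without EpiLC replicate 2. SOX2-OFF exceeded CEpiLC by 1.86 (SE 0.29, adjusted p 0.000152 by edgeR) and SOX2-ON lay below SOX2-OFF with -1.18 (SE 0.27, adjusted p 0.00544 by edgeR). SOX2-ON against CEpiLC gave 0.68 and did not pass the test (adjusted p 0.0711 by edgeR).

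Wnt2b and Wnt7b were also low. Wnt2b (chromosome 3, 104944805 to 104961709) read 0.16, 0.2 and 0.04 TPM for EpiLC, 0.36, 0.44 and 2.71 for CEpiLC, 0.79, 0.75 and 0.78 for SOX2-OFF, and 0.18, 0.1 and 0.23 for SOX2-ON. CEpiLC replicate 3 was the highest library of all. Wnt2b rose in CEpiLC over EpiLC by 2.84 (SE 0.80, adjusted p 0.0118 by edgeR), or 1.45 without that library (adjusted p 0.0284 by edgeR). SOX2-ON lay below CEpiLC with -2.64 (SE 0.78, adjusted p 0.0109 by edgeR), or -1.25 without that library (adjusted p 0.0357 by edgeR), and the call was lost by limma-voom (-1.83, adjusted p 0.0533). SOX2-OFF against CEpiLC gave -0.41 (adjusted p 0.624 by edgeR) and 0.99 without that library (adjusted p 0.0503 by edgeR). In SOX2-ON against SOX2-OFF the difference of -2.23 (SE 0.80) missed the threshold (adjusted p 0.0514 by edgeR), while the 3 values of each group did not overlap. Of 15 alternatives, 5 called it and 10 did not.

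Wnt7b (chromosome 15, 85535437 to 85581821) was the gene that fell on exposure to CHIR99021. It read 1.8, 1.33 and 1.23 TPM for EpiLC, 0.1, 0.53 and 0.54 for CEpiLC, 3.53, 3.23 and 2.28 for SOX2-OFF, and 0.95, 1.02 and 1.93 for SOX2-ON. CEpiLC was lowest and SOX2-OFF highest, and SOX2-ON overlapped EpiLC. Wnt7b was lower in CEpiLC than in EpiLC with a log2 difference of -2.07 (SE 0.46, adjusted p 0.00306 by edgeR), and the difference was -1.46 without CEpiLC replicate 1. SOX2-OFF exceeded CEpiLC by 3.13 (SE 0.45, adjusted p 7.56e-05 by edgeR) and SOX2-ON by 1.85 (SE 0.47, adjusted p 0.00457 by edgeR), or by 2.52 and 1.24 without CEpiLC replicate 1. SOX2-ON lay below SOX2-OFF with -1.28 (SE 0.37, adjusted p 0.0203 by edgeR), a call lost without SOX2-OFF replicate 1 or 2 or SOX2-ON replicate 1 or 2 (adjusted p 0.0638 to 0.0814 by edgeR).

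Markers of other cells differed between the groups, and not all of them by line. The 10 extraembryonic endoderm markers summed to 9.72 to 13.4 TPM in EpiLC and 6.42 to 9.79 in CEpiLC. They summed to 289 to 337 in SOX2-OFF and 123 to 343 in SOX2-ON. All 8 that could be tested were called higher in SOX2-OFF against CEpiLC, where 23.6% of all genes were higher. SOX2-ON replicate 3 held the 343, Afp and Apoa1 stayed at or below 0.83 TPM in every library, and Ttr was at 0 in all CEpiLC libraries. The 8 feeder fibroblast markers summed to 21.2 to 88.4 TPM over all libraries, with none at 0 in a whole group. Their sum was highest in CEpiLC, where Thy1 alone read 66.8, 34.7 and 24.8 TPM. In CEpiLC against EpiLC 2 of the 8 were called higher and 0 lower, beside 22.1 and 20.1% of all genes. In SOX2-OFF against CEpiLC 1, Dcn, was called higher and 2 lower, beside 23.6 and 24.9%. The 8 naive pluripotency markers summed to 22.1 to 52.3 TPM in wild-type cells, 81.8 to 135 in SOX2-OFF and 321 to 414 in SOX2-ON, and the 7 trophoblast markers to at most 14.9 in any library. The 6 neural markers summed to 126 to 142 TPM in SOX2-ON and 4.16 to 22.1 in the other groups, and Sox21 alone held 93.6 to 116 TPM of the sum in SOX2-ON. All 6 were called higher in SOX2-ON than in SOX2-OFF, where 14.8% of all genes were higher. Against EpiLC 4 were called higher in SOX2-ON and 2 lower, beside 30.7 and 29.1% of all genes. Among those lower was Sox1 with -1.70 (SE 0.60, adjusted p 0.0248 by edgeR). The part of these cells in the ligand levels of the edited line was not tested.

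Promoter sequences were looked at because 9 of the ligand genes rose together on exposure to CHIR99021. RefSeq windows (GRCm38.p6) of 6 of the 10 genes, with 9 starts in all, were searched. Wnt8a, Wnt5a, Wnt7b and Wnt10a were not searched, so the counts of windows leave these genes out. The search covered the 220 bases from 250 to 31 before each start, on both strands. The TCF/LEF core, CTTTGA or its other-strand reading TCAAAG, was in 2 of the 9 windows and in 12.6% of 32817 windows of all genes. The windows with it are those of the first Wnt11 start (chr7:98834862-98835081, forward strand, 50 bases before the start) and of an inner Wnt5b start (chr6:119449417-119449636, reverse strand, 71 bases before the start). They are shown with the windows of Wnt3a (chr11:59290782-59291001, reverse strand) and Wnt6 (chr1:74771642-74771861, forward strand), genes with the larger rises, which hold no match. The Wnt6 window lies inside the span given above, before an inner start, and the bases before the outer start were not searched. Sequences run 5′ to 3′ along the gene, and capitals mark the TCF/LEF core and, further 3′ in Wnt5b, the T-box core as ACACCT.
Wnt11: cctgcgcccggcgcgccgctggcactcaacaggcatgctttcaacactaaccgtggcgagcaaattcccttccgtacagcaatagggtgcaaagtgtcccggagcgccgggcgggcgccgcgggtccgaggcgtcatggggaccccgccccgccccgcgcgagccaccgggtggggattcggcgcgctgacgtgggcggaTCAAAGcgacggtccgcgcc
Wnt5b: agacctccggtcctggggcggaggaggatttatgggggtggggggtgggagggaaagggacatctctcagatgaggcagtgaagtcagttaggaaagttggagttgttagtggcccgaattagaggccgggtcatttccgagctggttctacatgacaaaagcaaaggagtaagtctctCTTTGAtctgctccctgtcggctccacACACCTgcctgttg
Wnt3a: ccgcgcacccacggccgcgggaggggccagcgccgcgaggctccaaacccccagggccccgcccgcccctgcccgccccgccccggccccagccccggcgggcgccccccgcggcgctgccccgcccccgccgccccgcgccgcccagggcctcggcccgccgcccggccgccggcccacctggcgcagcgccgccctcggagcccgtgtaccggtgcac
Wnt6: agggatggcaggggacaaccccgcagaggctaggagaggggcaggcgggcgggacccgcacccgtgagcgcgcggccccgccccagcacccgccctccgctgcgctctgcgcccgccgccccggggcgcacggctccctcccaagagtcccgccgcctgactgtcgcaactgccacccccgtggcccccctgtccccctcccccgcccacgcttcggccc

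The T-box core, AGGTGT or its other-strand reading ACACCT, was in 2 of the 9 windows, of Wnt5b and Wnt2b, and in 10.7% of all windows. The SOX core, ACAATG or its other-strand reading CATTGT, was in 0 of the 9 and in 9.78% of all. The Wnt3a and Wnt6 windows were 88.6 and 79.1% G and C, and the Wnt11 and Wnt5b windows 71.4 and 54.5%, beside a median of 51.8% over all windows. A match describes these letters only, and sites further away were not searched.

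The genes whose log2 CPM (library-scaled counts) ran most like a ligand's over the 12 libraries were mostly different for each ligand. Wnt6 ran with Ebp (Pearson r = 0.996) and Tcea3 (0.994), Wnt5b with Evx1 (0.994) and Ifitm1 (0.993), and Wnt3a with Pcdhgc3 (0.992) and Lgalsl (0.988). Wnt5a ran with Tnfrsf19 (0.991) and Btla (0.989), Wnt10a with Tle3 (0.99) and Msgn1 (0.982), and Wnt11 with Pmepa1 (0.989) and Dkk1 (0.978). Wnt3 ran with Cdkn1a (0.987) and with Wnt6 (0.984), the pair of ligands joined by this measure. Wnt8a ran with Ror2 (0.977) and Zfp697 (0.968), Wnt7b with Ripk4 (0.978) and Hopx (0.944), and Wnt2b with D17Wsu92e and Cldnd1 (0.959 each). These 12 points fall into 4 groups, so each r describes the order of the groups more than the spread within them.

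Genes that act on the ligands before release were also measured. Of 8 genes for lipidation, secretion and retrieval, 5 were called higher and 0 lower in CEpiLC against EpiLC, beside 22.1 and 20.1% of all genes. Porcn, the target of LGK974, read 0.75 to 1.67 TPM for EpiLC and 9.6 to 15.9 for CEpiLC, a rise of 3.42 on the log2 scale (SE 0.25, adjusted p 3.28e-07 by edgeR). Wls, which carries lipidated ligands to the surface, read 39.2 to 54.9 TPM for EpiLC, 88.1 to 128 for CEpiLC, 47 to 56.5 for SOX2-OFF and 26.8 to 31.2 for SOX2-ON. It rose in CEpiLC by 1.10 (SE 0.15, adjusted p 9e-05 by edgeR) and was lower in SOX2-ON than in SOX2-OFF with -0.81 (SE 0.16, adjusted p 0.00176 by edgeR). In that comparison, 1 of the 8 genes was called higher and 4 lower, beside 14.8 and 14.1% of all genes.

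Among 19 receptor and co-receptor genes, 5 were called higher and 7 lower in CEpiLC against EpiLC, where 22.1% of all genes were higher and 20.1% lower, and the median was -0.0024. Fzd10, a Frizzled receptor, rose by 7.14 (SE 0.18, adjusted p 3.34e-11 by edgeR), from 0.69 to 1.24 TPM in EpiLC to 121 to 169 in CEpiLC. Fzd5 and Fzd8 fell by 2.69 and 2.41 (adjusted p 1.64e-06 and 9.47e-06 by edgeR). In SOX2-ON against SOX2-OFF, 7 receptor genes were called higher and 6 lower, beside 14.8 and 14.1% of all genes. Ror2, a receptor for WNT5A, read 10.5 to 13.5 TPM for EpiLC, 47.3 to 69.6 for CEpiLC, 26.3 to 27.6 for SOX2-OFF and 16 to 18.9 for SOX2-ON. It was lower in SOX2-ON than in CEpiLC with -1.77 (SE 0.13, adjusted p 2.21e-07 by edgeR).

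Secreted modulators of WNT signalling moved in both directions. Of 18 such genes, 13 could be tested. In CEpiLC against EpiLC 6 were called higher and 3 lower, beside 22.1 and 20.1% of all genes. In SOX2-OFF against CEpiLC 2 were called higher and 8 lower, beside 23.6 and 24.9%. Notum, an enzyme that strips the lipid from WNT proteins, read 0.48 to 0.91 TPM for EpiLC, 39 to 104 for CEpiLC, 12.3 to 14.6 for SOX2-OFF and 6.04 to 6.67 for SOX2-ON. Rspo3, which raises receptor levels, read 47.3, 69.7 and 148 TPM for CEpiLC, with replicate 3 high, and was lower for SOX2-ON than for SOX2-OFF with -2.75 (SE 0.37, adjusted p 0.000122 by edgeR). Dkk1, an antagonist of LRP co-receptors, read at most 0.09 TPM for EpiLC, 2.45 to 10.9 for CEpiLC, 41.5 to 60.3 for SOX2-OFF and 9.95 to 20.2 for SOX2-ON, highest for SOX2-OFF.

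WNT feedback targets give a reading of the pathway inside the cell. Of 9 such genes, 8 were called higher and 0 lower in CEpiLC against EpiLC, beside 22.1 and 20.1% of all genes. In SOX2-OFF against CEpiLC 1 was higher and 5 lower, beside 23.6 and 24.9%. Chromosome medians were not removed for this list or the other gene lists. The part of chromosome-wide differences between the lines in their counts was not tested. In SOX2-ON against SOX2-OFF 0 were higher and 6 lower, beside 14.8 and 14.1%. Axin2, a scaffold of the β-catenin destruction complex, read 9.86 to 12.8 TPM for EpiLC, 103 to 165 for CEpiLC, 81.5 to 99.9 for SOX2-OFF and 87.6 to 97.7 for SOX2-ON. Sp5, a transcription factor gene, read 0.05 to 0.07 TPM for EpiLC, 111 to 205 for CEpiLC, 104 to 141 for SOX2-OFF and 40.5 to 59.1 for SOX2-ON, and was lower for SOX2-ON than for SOX2-OFF with -1.28 (SE 0.20, adjusted p 0.000404 by edgeR). Of 12 planar cell polarity genes, 2 were called higher and 2 lower in SOX2-ON against SOX2-OFF, near the 14.8 and 14.1% of all genes, and the median was 0.038. Celsr2, an atypical cadherin gene of this group, was higher in SOX2-ON by 1.71 (SE 0.16, adjusted p 6.36e-06 by edgeR), and Prickle1, another core gene, was lower with -0.69 (SE 0.15, adjusted p 0.0034 by edgeR).

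**Figure D4:**
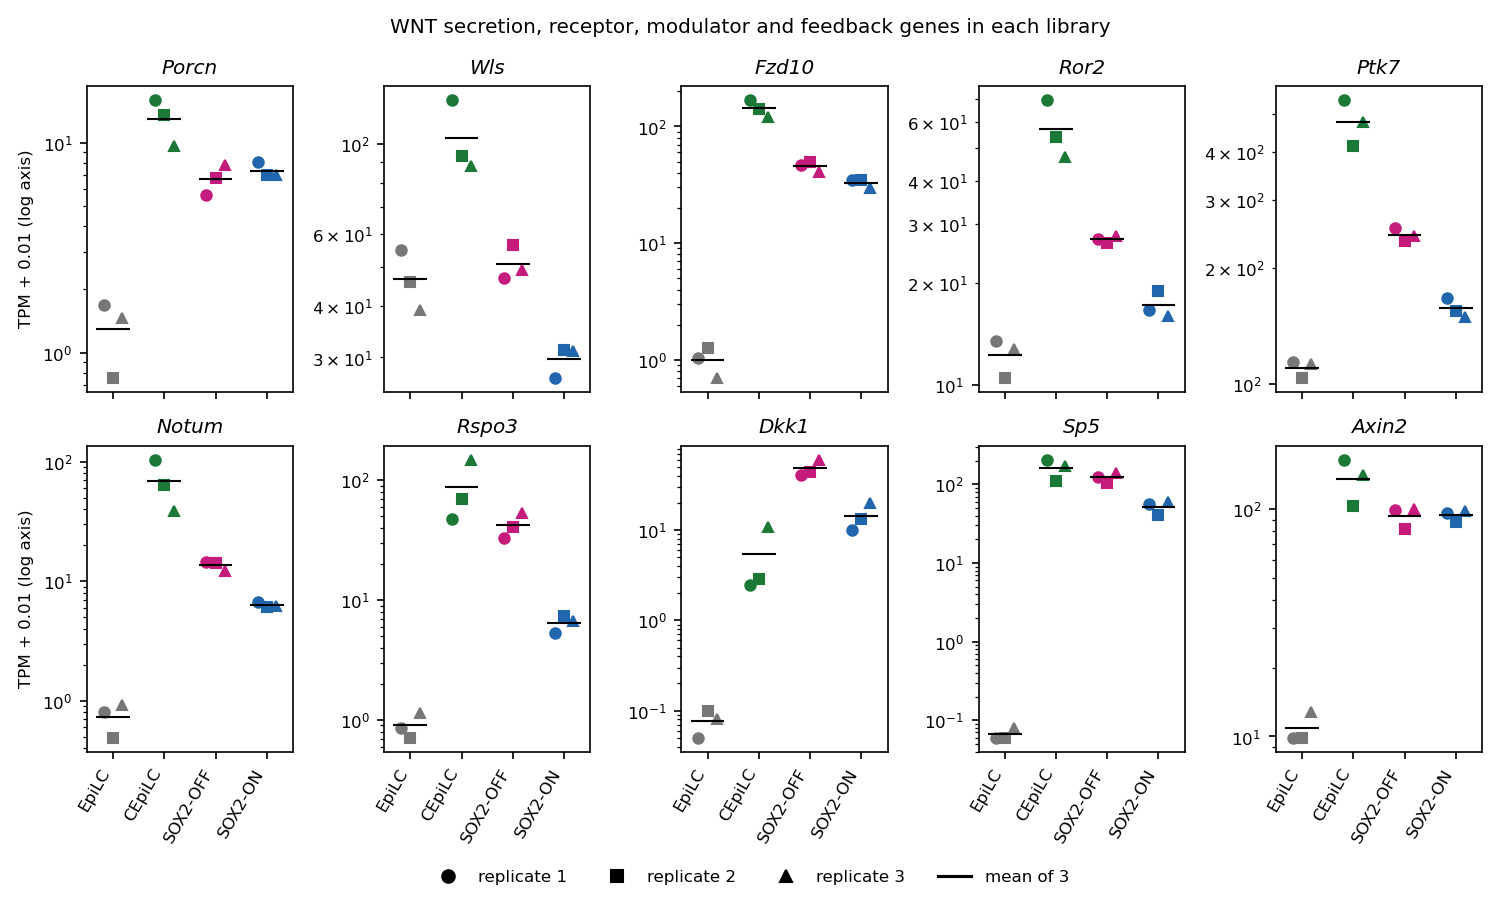
Each panel gives a gene of WNT secretion (Porcn, Wls), reception (Fzd10, Ror2, Ptk7), modulation outside the cell (Notum, Rspo3, Dkk1) or feedback (Sp5, Axin2) in TPM + 0.01 on a log axis, with its own range, for the 3 libraries of each group and a bar at their mean. Axin2 overlaps between SOX2-OFF (81.5 to 99.9) and SOX2-ON (87.6 to 97.7), while Notum, Rspo3 and Sp5 do not.

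The other 9 WNT ligand genes were measured as well. Wnt9a, with the highest mean of them in each group, read 2.7 to 4.03 TPM for EpiLC and 3.93 to 6.7 in the other groups, and rose for CEpiLC over EpiLC by 0.81 (SE 0.20, adjusted p 0.00608 by edgeR). Wnt4 fell by 1.15 in the same comparison (SE 0.26, adjusted p 0.00344 by edgeR). Wnt2 read 0.28, 0.62 and 4.06 TPM for CEpiLC, again with replicate 3 high, and 2.26 to 5.67 for SOX2-OFF against 0.06 to 0.21 for SOX2-ON, where it was lower by edgeR (adjusted p 0.00268). Wnt7a was higher in SOX2-ON than in SOX2-OFF by 2.08 (SE 0.63, adjusted p 0.025 by edgeR), and Wnt16 lower with -1.41 (SE 0.35, adjusted p 0.00898 by edgeR). Wnt9b read at most 0.59 TPM, and its span overlaps the start of Wnt3 by 1098 bases on the other strand, where the stranded counts keep them apart. Wnt1, Wnt8b and Wnt10b had too few counts to be tested, with at most 25 in a library.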

How the data were processed

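Strand-specific poly(A) RNA libraries of 76 bp single-end reads were trimmed by the authors with cutadapt 1.16, aligned with STAR 2.5.2a to mm10 and quantified over RefSeq genes with RSEM 1.3.0 (reverse-strand setting). The authors deposited an expected count and a TPM value for each gene and library, without pooling. No WNT gene had a count that was not whole. Expected counts were rounded, filtered with filterByExpr and fitted in 1 model of all 12 libraries with TMM scaling and the quasi-likelihood test of edgeR 4.0.16 (limma 3.58.1, R 4.3.3), with Benjamini-Hochberg adjustment over 14196 of 24736 genes. The study itself used DESeq2. TPM values as deposited were used for levels only. SEs were derived from the F statistic. A group with at most 3 counts in every library was compared by its pooled ratio with an exact 95% interval. The adjusted p printed beside it is from the edgeR fit and not from that ratio. A positive log2 value is higher in the first group named.

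The 10 genes, the gene lists and the tests were chosen with earlier results of these data known. All 10 passed the filter. Text names these 10, the other WNT ligand genes, up to 3 genes with the largest change of each list and comparison among those called, the 2 genes (average of at least 2 log2 CPM) with the highest r for each ligand, and Sox2. Afp, Apoa1 and Pou5f1 were named after their values were seen.

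Positions are RefSeq, GRCm38.p6, which is mm10. Library totals were 10408252 to 27337740 expected counts, and chi-square per degree of freedom between replicates was 7.35 to 41.8, so none was deposited again. Same-numbered libraries of EpiLC and CEpiLC deviated together from their group means (r = 0.12, 0.132 and 0.103). For SOX2-OFF with CEpiLC r was 0.0526, 0.179 and 0.173, and for SOX2-ON with CEpiLC 0.0637, 0.201 and 0.163. Libraries with different numbers were not compared in this way, so these values do not establish a pairing. Alternatives were RLE and library size scaling, no filter or a filter of 1 CPM in 3 libraries, DESeq2 1.42.0, limma-voom, fits of 6 libraries alone, a block for replicate number, removal of chromosome medians and leaving out each library.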

Additional observations from a re-analysis of the deposited data

How the results depend on the processing

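The numbers of ligand genes called were within 1.5 times the main count under every alternative. They were 10 in CEpiLC against EpiLC throughout, 6 to 8 in SOX2-OFF against CEpiLC, 8 or 9 in SOX2-ON against CEpiLC, 6 to 9 in SOX2-ON against SOX2-OFF, 8 to 10 in SOX2-OFF against EpiLC and 7 in SOX2-ON against EpiLC. With the replicate number as a block, 10 were called in CEpiLC against EpiLC, and the block changed no call there. In SOX2-ON against SOX2-OFF the fit of the 6 libraries compared called 9, adding Wnt8a (adjusted p 0.0452) and Wnt2b (0.00152). The block, fitted on those 6 libraries, also called 9 with both of these (0.00827 and 0.00401), although a pairing by number was not established there either (r of deviations 0.0533 to 0.0897).

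Of 59 pairs of a gene and a comparison, 48 kept direction and side of the threshold in every alternative run. Calls were lost for Wnt6, Wnt2b and Wnt7b and gained for Wnt5b, Wnt8a and Wnt2b, and the direction reversed for Wnt5b, Wnt2b and Wnt10a. Reversed values were those of genes that were not called. In SOX2-OFF against CEpiLC, Wnt5b became -0.25 with chromosome medians removed, Wnt2b became 0.40 by limma-voom and ran from -0.91 to 0.99 with a library left out (highest without CEpiLC replicate 3), and Wnt10a became -0.027 by library size scaling and -0.033 with chromosome medians removed, and ran from -0.32 to 0.25 (lowest without CEpiLC replicate 2). In SOX2-ON against EpiLC, Wnt2b ran from -0.13 to 0.55 with a library left out (lowest without EpiLC replicate 3). In SOX2-OFF against EpiLC, the Wnt2b and Wnt7b calls were lost when a library was left out, with adjusted p up to 0.0589 and 0.0761. The cause of these changes was not tested. In SOX2-ON against EpiLC Wnt2b was filtered out of the fit of 6 libraries and of the block. Low counts limit Wnt2b, Wnt7b, Wnt10a and Wnt11, and 3 libraries a group limit all genes.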
